A study of Mus musculus with 5 samples.

Results

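Glutamate, GABA and glycine receptor subunits were followed in RNA from pooled mouse retinas, 3 pools from diabetic mice and 2 from control mice. The members were 38 named genes, and every probe set with exactly 1 gene symbol among them was used, 78 probe sets in all. These gave values for 36 of the 38 genes, of 18193 genes measured, and the levels of Grin1 and Gabbr2 were not analysed here. Diabetic replicates 1 and 2 each held 4 retinas from 2 mice at 5 weeks after streptozotocin, which destroys pancreatic beta cells. Diabetic replicate 3 held 6 retinas from 3 mice whose diabetes, by an agent its label does not name, had lasted 3 to 4 weeks. Control replicates 1 and 2 each held 4 retinas from 2 untreated mice of matched age and normal blood glucose. The sources used here name no strain, sex or age, and every array measured a pool, so the spread between arrays is the spread between pools.

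Glutamate carries the signal from photoreceptors to bipolar cells and from bipolar cells to amacrine and ganglion cells, while GABA and glycine carry inhibition from horizontal and amacrine cells. Ionotropic receptors are ion channels assembled from several subunits, so the set of subunit genes a cell transcribes fixes which channels it can build. Metabotropic glutamate receptors and GABA-B receptors signal through G proteins instead. In bulk retina, fewer cells of a type and less RNA per cell cannot be told apart.

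Markers of retinal cell types were measured in all 5 arrays. The median level of the 2 rod markers measured ran from 16.64 to 16.83 over the 5 arrays, on the scale log2(signal + 120.6) used throughout, that of the 5 amacrine markers from 13.55 to 13.89, and that of the 5 Muller glia markers from 13.96 to 14.29. The 4 bipolar markers had medians of 12.49 to 12.61 and the 5 ganglion cell markers of 12.83 to 13.25. Those of the 3 horizontal cell markers were 9.70 to 10.55. The horizontal marker Lhx1 was lower in every diabetic pool (-0.55, SE 0.23), and the ganglion cell markers Rbpms and Nefl were higher (0.18 and 0.15). In the other tested markers of these types the groups overlapped, while in 18.1% of all genes they did not. Of other tissues, 6 skeletal muscle genes had a median of 12.70 in diabetic replicate 3 and 11.90 in control replicate 2, the muscle-rich arrays, against 7.92 to 8.66 elsewhere. The 5 pigment epithelium markers had medians of 11.04 to 11.43 in the diabetic arrays and of 12.17 and 13.31 in the controls. In diabetic replicate 2 the beta-actin 3' to 5' signal ratio, a measure of RNA integrity, was 4.32, against 2.01 to 2.71 elsewhere. The part these differences play in the receptor values was not tested.

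Several members lie beside each other in the order of protein-coding genes of the mouse reference (assembly GRCm38.p6). Gabrr1 neighbours Gabrr2, Gria2 neighbours Glrb, Gabrg3 neighbours Gabra5, Gabrg1 neighbours Gabra2, and Gabra4 neighbours Gabrb1, with 1 gene, Cox7b2, between Gabra2 and Gabra4. RefSeq promoter windows of that build were at hand for 28 members, 35 windows in all, with Grin1 and Gabbr2 among them. Over the 250 bases before each start they held a median of 9 CpG dinucleotides, from 0 to 42, against 6 over 32851 windows of all genes, and a median GC content of 60.4% against 52.4%. Windows of the same gene can overlap. On either strand, the GC box GGGCGG was present in 19 of 35 windows (54.3%) and in 32.7% of all windows. TATAAA was present in 4 (11.4% against 12.4% of all windows), and TAATCC, a core bound by photoreceptor homeobox factors, in 2 (5.71% against 6.25%). These are matches of letters only, and a motif that overlaps another was counted for each. The upstream bases of the rho pair and of Gria2 and Glrb, chosen because their levels are described in full, are shown so that neighbours can be read side by side, 5′ to 3′ on the strand of the gene, with motif matches in capitals. Gabrr1 lies on the plus strand (chr4:33132306-33132555), Gabrr2 on the plus strand (chr4:33062862-33063111), Gria2 on the minus strand (chr3:80802836-80803085) and Glrb on the minus strand (chr3:80913661-80913910).
Gabrr1: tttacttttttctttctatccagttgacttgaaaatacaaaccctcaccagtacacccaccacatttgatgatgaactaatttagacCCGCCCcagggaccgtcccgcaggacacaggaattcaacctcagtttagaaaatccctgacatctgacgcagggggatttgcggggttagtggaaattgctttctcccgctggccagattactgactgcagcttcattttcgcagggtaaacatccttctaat
Gabrr2: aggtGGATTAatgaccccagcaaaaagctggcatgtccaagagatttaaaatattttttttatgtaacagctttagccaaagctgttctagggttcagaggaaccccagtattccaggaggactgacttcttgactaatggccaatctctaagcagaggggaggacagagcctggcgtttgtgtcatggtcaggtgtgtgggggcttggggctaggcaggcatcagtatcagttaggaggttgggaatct
Gria2: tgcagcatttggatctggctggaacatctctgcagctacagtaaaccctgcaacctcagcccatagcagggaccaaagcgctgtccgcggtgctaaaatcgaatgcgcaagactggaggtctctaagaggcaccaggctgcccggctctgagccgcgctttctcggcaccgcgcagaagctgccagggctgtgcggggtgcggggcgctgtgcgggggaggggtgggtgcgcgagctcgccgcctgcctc
Glrb: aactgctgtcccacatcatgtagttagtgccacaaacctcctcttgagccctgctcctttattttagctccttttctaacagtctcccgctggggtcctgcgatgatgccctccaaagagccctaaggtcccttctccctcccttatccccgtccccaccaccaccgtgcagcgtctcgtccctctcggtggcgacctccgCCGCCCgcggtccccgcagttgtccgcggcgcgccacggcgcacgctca
Gabrr1 carried a GC box on the reverse strand and Gabrr2 a TAATCC match on the reverse strand. Glrb carried a GC box on the reverse strand, and the Gria2 window held none of the 3 motifs but 19 CpG dinucleotides, against 1 for Gabrr2.

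No receptor subunit differed between diabetic and control pools in the test across all genes. Of the 36 genes, 29 lay in the upper 60% of genes by mean level and were tested, and 0 of these passed an adjusted p of 0.05 (limma, Benjamini-Hochberg over 10916 genes, adjusted p = 0.999 for each), where 0% of all genes passed. At an unadjusted limma p under 0.05 there were 0 of 29 members, against 3.39% of all genes tested. Without a filter on dim genes there was 1 of 36, against 3.82% of all genes in that fit. The diabetic and control values did not overlap in 3 of 29 members (10.3%), against 18.1% of all genes. All 3 had higher diabetic values, against 9.99% of all genes in that direction, and 0 had lower ones, against 8.15%. There were 14 members higher and 15 lower in diabetic pools (18 and 11 with each array centred on its median), with a median log2 difference of -0.00121, beside 0.00602 over all genes tested.

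The precision of the comparison can be read from the intervals. The tested differences ran from -0.19 to 0.27 on the log2 scale, and the median standard error of a member was 0.16, against 0.12 over all genes. The 95% intervals of all 29 included 0, those of 17 lay within 0.5 log2 units of 0, and those of all 29 lay within 1. In 22 members the difference was smaller than its own standard error. Glycine and kainate receptors had the highest class medians among classes of 3 or more tested members (0.09 and 0.06) and metabotropic glutamate receptors the lowest (-0.17), but the glycine median was -0.03 without control replicate 2 and the kainate median -0.10 without diabetic replicate 2. The metabotropic median kept its sign with any single array left out, between -0.21 and -0.08.

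**Figure D1:**
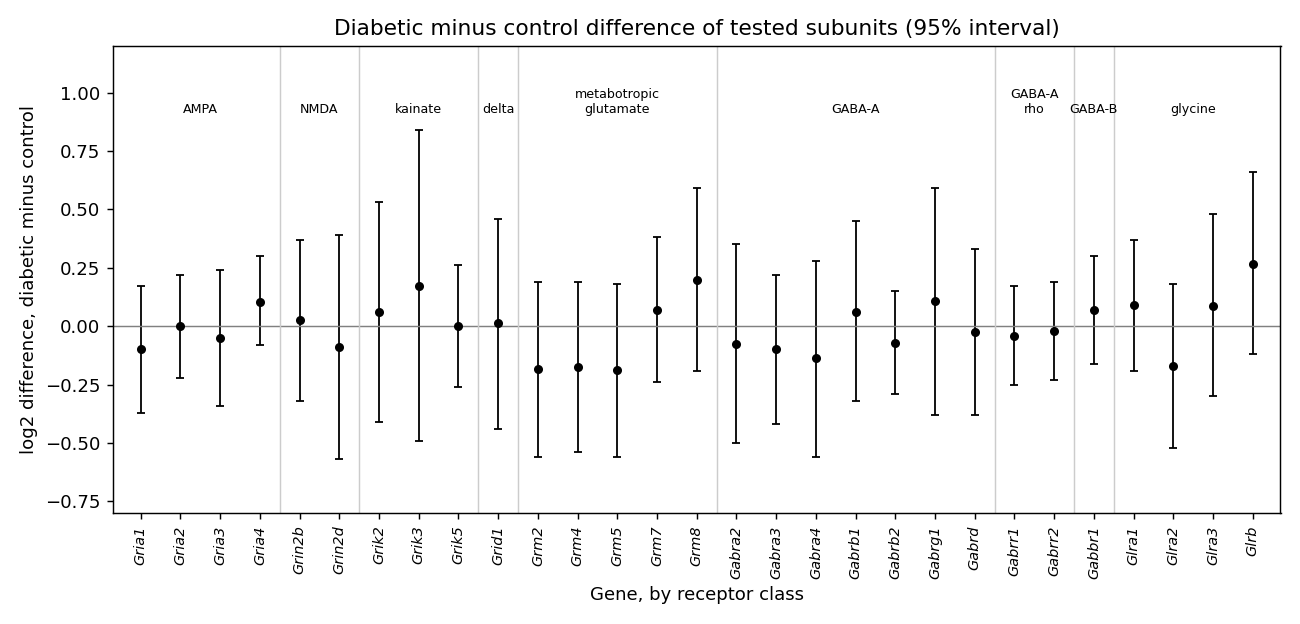
Log2 difference, diabetic minus control, of each of the 29 tested subunits by receptor class, with points for the limma estimate and bars for its 95% interval (3 diabetic and 2 control arrays). Every interval includes 0, and the points run from -0.19 (Grm5) to 0.27 (Glrb).

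AMPA receptors carry fast excitation in OFF bipolar, horizontal, amacrine and ganglion cells, and all 4 of their subunit genes were measured well above the filter of 9.70. Gria4 was at 13.40, 13.37 and 13.30 in diabetic replicates 1, 2 and 3, against 13.28 and 13.22 in the controls. The groups did not overlap, by a margin of the second decimal, and the difference was 0.11 (SE 0.08, 95% interval -0.08 to 0.30). It kept its sign with any single array left out (0.08 to 0.14), but the other probe sets of Gria4 above the filter differed by -0.02 and 0.00. Gria2, the subunit that makes AMPA channels nearly impermeable to calcium, was at 13.27, 13.12 and 13.35 in the diabetic pools and at 13.23 and 13.26 in the controls. The control values lay inside the range of the diabetic ones, and the difference was -0.00121 (95% interval -0.22 to 0.22). Gria1 differed by -0.10 (95% interval -0.37 to 0.17) and Gria3 by -0.05 (-0.34 to 0.24), and both were highest in diabetic replicate 2 and control replicate 2. The class median was -0.03, and 0.04 without control replicate 2.

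**Figure D2:**
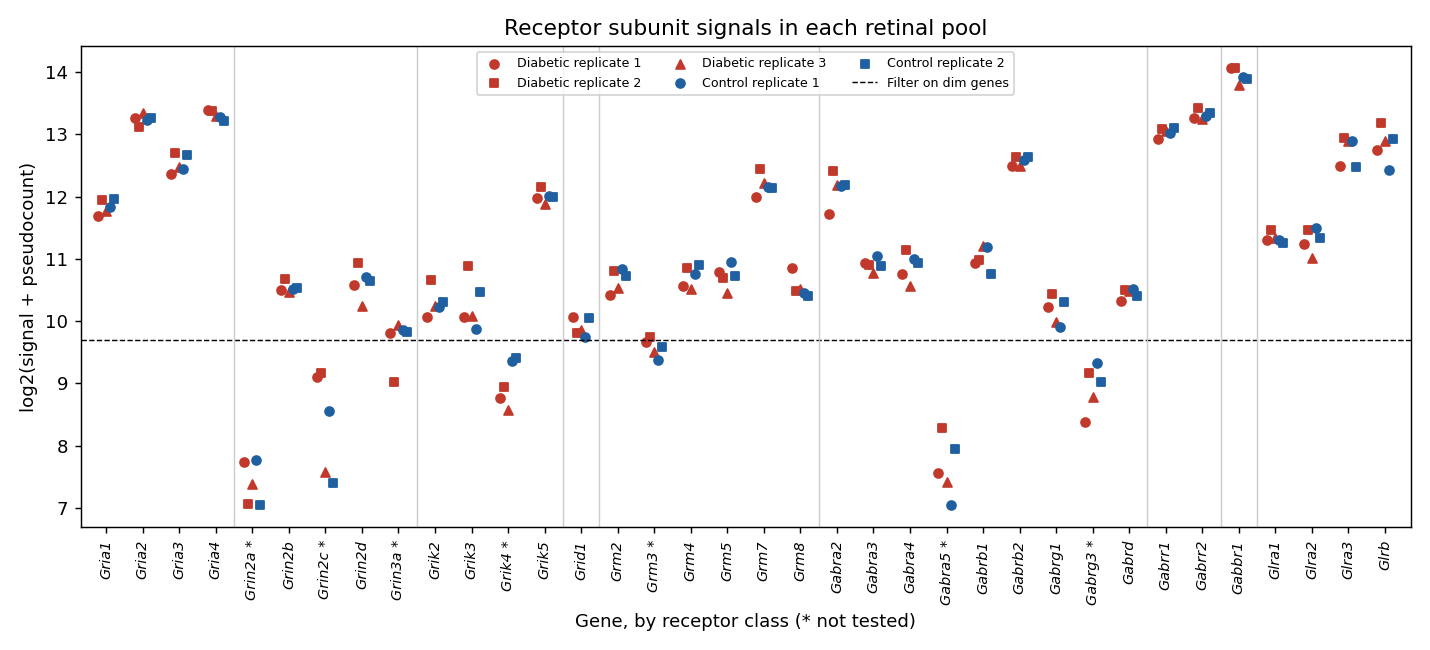
Level of the 36 measured subunit genes in each of the 5 arrays, as log2(signal + 120.6), ordered by receptor class, with red for diabetic and blue for control pools, symbols for replicates and a dashed line at the filter level of 9.70. The Gria2, Gria4, Gabrr2 and Gabbr1 points lie at 13.12 or more in all 5 arrays, and the 7 genes marked with an asterisk fell below the filter by their mean. Signals of different probe sets depend on the probes, so heights of different genes are not amounts of transcript.

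NMDA receptors need glutamate, a co-agonist and depolarization to open, and in retina they serve mainly ganglion and amacrine cells. Of the 5 genes measured, Grin2b and Grin2d were above the filter and Grin2a, Grin2c and Grin3a below it. Grin2d was at 10.58, 10.94 and 10.24 in diabetic replicates 1, 2 and 3, against 10.71 and 10.64 in the controls, so that the diabetic pools spanned both sides of the controls. Its difference was -0.09 (95% interval -0.57 to 0.39), and 0.08 without diabetic replicate 3. Grin2b was at 10.50, 10.67 and 10.47 in the diabetic pools and at 10.51 and 10.53 in the controls, a difference of 0.03. Its second probe set above the level that keeps the upper 60% of all probe sets was at 9.04, 9.41 and 9.21 against 9.67 and 9.50, lower in every diabetic pool (-0.36, SE 0.26). These probe sets of Grin2b had opposite signs, but the first was near 0. Their 95% intervals (-0.32 to 0.37 and -0.97 to 0.25) overlapped, and its dimmer probe sets differed by 0.04 and -0.01.

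Grin3a, a subunit that lowers calcium entry, also had probe sets of opposite sign. Its brightest probe set was at 9.81, 9.02 and 9.94 in the diabetic pools and at 9.85 and 9.83 in the controls, with diabetic replicate 2 alone low. Another was at 9.11, 9.38 and 9.42 against 8.99 and 9.06, higher in every diabetic pool (0.28, SE 0.26). Without diabetic replicate 2 the brightest probe set differed by 0.04 in place of -0.25. Grin2c, a late-expressed NMDA subunit, was at 9.10, 9.17 and 7.58 in the diabetic pools and at 8.56 and 7.40 in the controls. Its low values were those of diabetic replicate 3 and control replicate 2, the muscle-rich arrays. The difference of 0.63 (95% interval -0.70 to 1.97) was the largest of any member in size, and it ran from 0.05 without control replicate 2 to 1.22 without control replicate 1. Without diabetic replicate 3 it was 1.15, with an unadjusted limma p under 0.05. The replicate numbers as a block gave the same 1.15, because diabetic replicate 3 then adds nothing, so that fit is not a second comparison. Grin2a was between 7.04 and 7.77 in all arrays, with a difference of -0.01 (95% interval -0.76 to 0.74).

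Kainate receptors are the other fast glutamate channels of OFF bipolar cells, and their subunits Grik4 and Grik5 act with high affinity alongside Grik2 or Grik3. Grik5 was at 11.98, 12.15 and 11.88 in the diabetic pools and at 12.01 and 11.99 in the controls. The controls lay between the diabetic values, and the difference was 0.000285 (95% interval -0.26 to 0.26). Grik3 was at 10.06, 10.89 and 10.09 in the diabetic pools and at 9.88 and 10.47 in the controls, high in diabetic replicate 2 and control replicate 2. Its difference of 0.17 became 0.47 when control replicate 2 was left out, -0.12 when control replicate 1 was, and 0.60 without both muscle-rich arrays. Grik2 differed by 0.06 (95% interval -0.41 to 0.53), and by -0.11 without diabetic replicate 2.

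Grik4 had the lowest unadjusted p of any member, but its mean lay below the filter and it was not in the main test. It was at 8.77, 8.94 and 8.58 in diabetic replicates 1, 2 and 3, against 9.36 and 9.41 in the controls, lower in every diabetic pool. In the limma fit without a filter on dim genes the difference was -0.62 (SE 0.26, 95% interval -1.22 to -0.02, unadjusted p = 0.0441), with no adjusted p under 0.05 for any gene in that fit. Leaving out single arrays gave -0.71 to -0.53, and leaving out both muscle-rich arrays -0.51. It depended on how low signals are handled, with -0.81 at a pseudocount of 1 and -0.30 at a pseudocount of 690.0. Only 1 probe set measured Grik4. The delta receptor gene Grid1, whose protein works chiefly in synapse organization, was at 10.06, 9.81 and 9.86 in the diabetic pools and at 9.75 and 10.05 in the controls. Its groups overlapped fully, with a difference of 0.01 (95% interval -0.44 to 0.46).

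Metabotropic glutamate receptors adjust transmission through G proteins, with Grm5 in the group coupled to phospholipase C, Grm2 and Grm3 in the second group, and Grm4, Grm7 and Grm8 in the last group, which sits mainly on presynaptic endings. Grm7 was at 12.0, 12.44 and 12.22 in the diabetic pools and at 12.16 and 12.14 in the controls. The diabetic pools spanned the controls, and the difference was 0.07 (95% interval -0.24 to 0.38), or -0.04 without diabetic replicate 2. A second, dimmer probe set of Grm7 differed by 0.55 (SE 0.38), with overlapping groups, and the dimmest one by -0.29 (SE 0.46). Grm8 was at 10.85, 10.49 and 10.51 in diabetic replicates 1, 2 and 3, against 10.45 and 10.40 in the controls. Its groups did not overlap, and the difference of 0.20 (SE 0.17, 95% interval -0.19 to 0.59) was 0.08 without diabetic replicate 1.

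Grm5, Grm2 and Grm4 had the 3 lowest differences of the tested members. Grm2 was at 10.42, 10.81 and 10.54 in the diabetic pools and at 10.83 and 10.72 in the controls (-0.18, SE 0.17). Grm4 was at 10.57, 10.86 and 10.52 against 10.75 and 10.90 (-0.17, SE 0.16). In both genes diabetic replicate 2 lay with the controls while diabetic replicates 1 and 3 lay below them, and without diabetic replicate 2 the differences were -0.30 and -0.28. Grm5 was at 10.79, 10.70 and 10.45 against 10.95 and 10.72 (-0.19, SE 0.16), while its second probe set differed by 0.22. Grm3, below the filter, differed by 0.16 (95% interval -0.38 to 0.70).

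GABA-A receptors are chloride channels of 5 subunits, usually alpha, beta and gamma or delta subunits together. Of 9 genes measured, 7 were tested, 2 higher and 5 lower in diabetic pools with a median of -0.07 (0.03 without diabetic replicate 1). Gabrb2 was at 12.50, 12.63 and 12.50 in the diabetic pools and at 12.59 and 12.63 in the controls. Its difference was -0.07 (95% interval -0.29 to 0.15), and its 5 probe sets all had lower diabetic means, by -0.04 to -0.09, each by less than its standard error. Of the alpha subunits, Gabra2 was at 11.72, 12.41 and 12.18 in the diabetic pools and at 12.17 and 12.19 in the controls, with diabetic replicate 1 low. It differed by -0.08 (0.12 without diabetic replicate 1), Gabra3 by -0.10 and Gabra4 by -0.14. A dim probe set of Gabra3 had the opposite sign. It was at 8.07, 7.55 and 8.03 in the diabetic pools and at 7.37 and 7.50 in the controls (0.45, SE 0.26). With the mean over probe sets Gabra3 differed by 0.18.

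The remaining GABA-A subunits gave small or dim differences. Gabrb1 differed by 0.06, Gabrg1 by 0.11 and Gabrd, the subunit of extrasynaptic receptors, by -0.02, with intervals that reached 0.33 or more above 0 and -0.32 or lower below it. Gabrb1 lay between -0.15 and 0.28 with single control arrays left out and at -0.24 without both muscle-rich arrays. Gabrg1 likewise lay between -0.10 and 0.32 and at 0.43. A second, dim probe set of Gabrd was at 7.29, 7.28 and 7.14 in the diabetic pools and at 8.47 and 7.85 in the controls, lower in every diabetic pool. In the fit over all probe sets it differed by -0.93 (SE 0.26), and it was the only one of the 78 member probe sets under an unadjusted limma p of 0.05 there. The share over all probe sets was not counted, and in the gene fit without a filter 3.82% of all genes were under it. This probe set of Gabrd was chosen after its values were seen, and the brighter one did not follow it. Gabra5 and Gabrg3, both below the filter and neighbours in the genome, differed by 0.26 (95% interval -0.64 to 1.17) and -0.40 (-1.15 to 0.34). The dimmer probe sets of Gabrg3 differed by 0.50, -0.40 and -0.44. The last was lower in every diabetic pool, at 7.97, 7.94 and 8.04 against 8.37 and 8.48. Gabra5 was at 0.88 without both muscle-rich arrays and at -0.19 without control replicate 1. Of the linked genes Gabrg1, Gabra2, Gabra4 and Gabrb1, the outer pair had positive and the inner pair negative differences, all smaller than their standard errors.

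The rho subunits form GABA channels without the other GABA-A subunits and are best known from the axon terminals of retinal bipolar cells. Gabrr2 was at 13.26, 13.42 and 13.24 in the diabetic pools and at 13.29 and 13.35 in the controls. Gabrr1 was at 12.93, 13.09 and 13.05 in the diabetic pools and at 13.03 and 13.10 in the controls. In both genes the lowest value was diabetic and the groups overlapped. The differences of -0.02 (95% interval -0.23 to 0.19) and -0.04 (-0.25 to 0.17) were among the most tightly bounded of the members, with an SE of 0.09 each. Gabbr1, the ligand-binding subunit of the GABA-B receptor, was at 14.07, 14.07 and 13.79 in diabetic replicates 1, 2 and 3, against 13.92 and 13.89 in the controls. Diabetic replicates 1 and 2 lay above the controls and diabetic replicate 3 below them, a difference of 0.07 (95% interval -0.16 to 0.30) that was 0.16 without diabetic replicate 3.

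Glycine receptors are chloride channels of alpha subunits (Glra1, Glra2, Glra3) with the beta subunit Glrb, which ties them to the scaffold protein gephyrin. Glrb had the highest difference of the tested members, at 12.75, 13.19 and 12.89 in the diabetic pools and at 12.43 and 12.92 in the controls. Control replicate 1 alone was low, and control replicate 2 lay inside the diabetic range. The difference of 0.27 (SE 0.17, 95% interval -0.12 to 0.66) became 0.51 when control replicate 2 was left out, and 0.02 when control replicate 1 was, fits with 1 control array each. The other probe set of Glrb differed by -0.02, and Gria2, its neighbour, by -0.00121.

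Of the glycine alpha subunits, Glra1 was at 11.31, 11.47 and 11.33 in the diabetic pools and at 11.31 and 11.25 in the controls. The groups did not overlap, but diabetic replicate 1 and control replicate 1 were equal to the second decimal, and the difference was 0.09 (SE 0.12, 95% interval -0.19 to 0.37). Its dimmer probe set differed by -0.15. Glra3 was at 12.49, 12.95 and 12.90 in the diabetic pools and at 12.90 and 12.48 in the controls. The low arrays were diabetic replicate 1 and control replicate 2, so its values followed neither group, and the difference was 0.09. It was -0.13 or 0.30 with 1 control array left out, and -0.18 without both muscle-rich arrays. Glra2, the form of the developing retina that persists in amacrine cells, differed by -0.17 (95% interval -0.52 to 0.18), and by -0.06 without diabetic replicate 3.

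Among the tested subunits, diabetic replicate 2 stood apart from the other arrays. It had the highest signal of the 5 arrays in 15 of the 29 tested members (51.7%), against 32.8% of all tested genes, and the lowest in 1 (3.45%, against 19.5%). Diabetic replicate 1 had the lowest signal in 9 members (31.0%, against 24.3% of all tested genes). Diabetic replicate 3 had it in 10 (34.5%), a larger share than over all tested genes (2183 of 10916). The median distance of diabetic replicate 2 from the mean of the other arrays was 0.17 over the members and 0.04 over all tested genes. Without diabetic replicate 2, 10 members were higher and 20 lower in the diabetic pools (30 then passed the filter), with a median of -0.07, against -0.0055 over all genes, and still 0 members were under an unadjusted p of 0.05. These shares are descriptions, with no test, and this array was singled out after its values were seen.

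The probe sets of a gene did not agree on diabetic replicate 2. Of 14 members with more than 1 probe set above the level that keeps the upper 60% of all probe sets, 11 had probe sets on both sides of the other arrays' mean in it. This share was not counted over all genes. In the brightest probe set of each of the 14 members, diabetic replicate 2 was highest in 7 (50.0%, against 34.9% over all genes). Its median distance from the other arrays there was 0.14. In the 22 other probe sets of these members it was lowest in 11 (50.0%, against 37.0% over all genes), with a median distance of -0.19. Over all genes the same distances were 0.05 for 5865 brightest and -0.08 for 10019 other probe sets, of the same signs. Diabetic replicate 2 is also the array of the beta-actin ratio of 4.32, and the part of RNA integrity in this pattern was not tested.

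**Figure D3:**
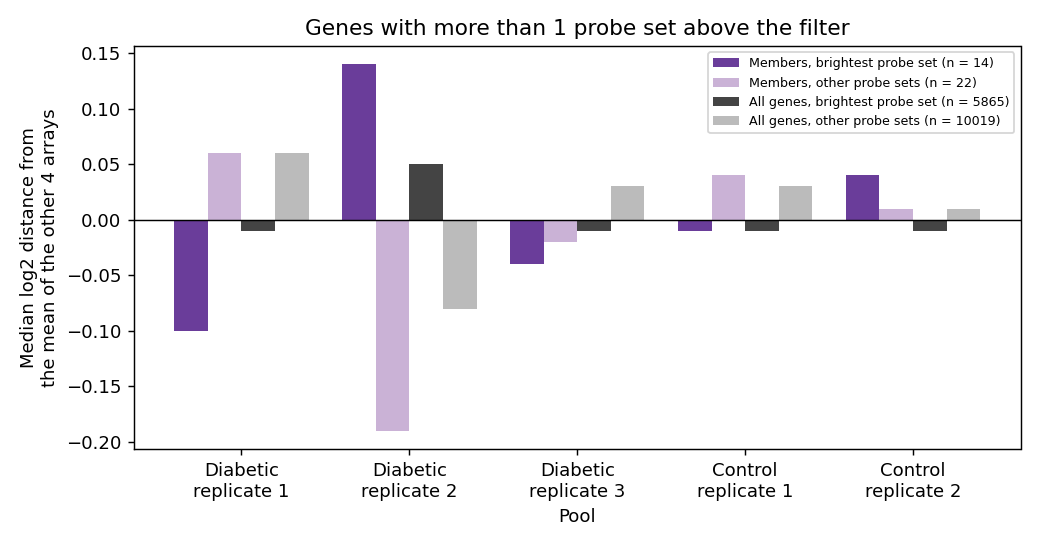
Median log2 distance of each array from the mean of the other 4 arrays, for the brightest and the other probe sets of genes with more than 1 probe set above the filter on probe sets, in members and in all genes. Diabetic replicate 2 stands at 0.14 and -0.19 in the members and at 0.05 and -0.08 in all genes.

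Gria2 is an example. Its brightest probe set was lower in diabetic replicate 2 (13.12) than in the other arrays (13.23 to 13.35). Another was highest there, at 13.22 against 12.87 to 13.09, and the remaining one was lowest, at 12.33 against 12.90 to 13.0. In Gabra2 the brightest probe set was highest in diabetic replicate 2, at 12.41 against 11.72 to 12.19, while the others above the filter were lowest there, at 10.26 and 9.29. Gabbr1 had a probe set 0.36 above the mean of the other arrays in diabetic replicate 2 and another 0.61 below it. In the group comparison, 8 of the 14 members had probe sets whose diabetic minus control differences had opposite signs, most of them smaller than their standard errors. They were Gabbr1, Gabra2, Gabrb1, Glrb, Gria4, Grin2b, Grin3a and Grm5. All but Glrb and Grin2b were also among the 11 that disagreed on diabetic replicate 2. The share of genes with such opposite signs was not counted over all genes either.

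**Figure D4:**
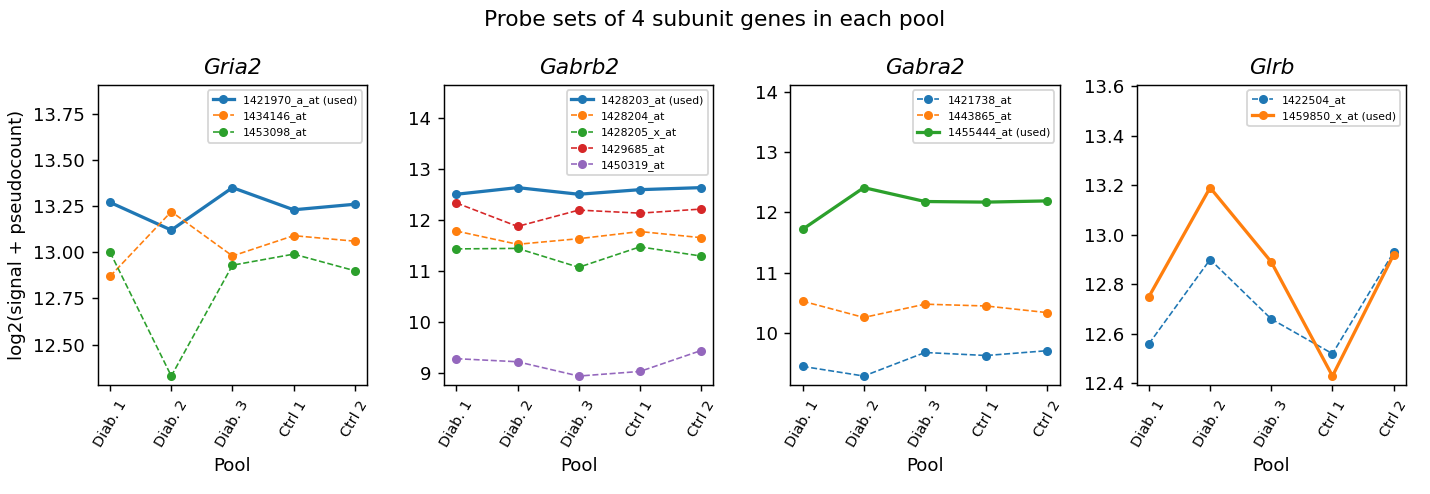
Levels of every probe set above the filter on probe sets, as log2(signal + 120.6), for Gria2, Gabrb2, Gabra2 and Glrb in each of the 5 pools, with a thick line for the probe set that stood for the gene. In Gria2, diabetic replicate 2 is at 13.12, 13.22 and 12.33 in the different probe sets, while both Glrb probe sets are lowest in control replicate 1 (12.43 and 12.52).

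Genes that make, move and anchor the same transmitters and receptors were read beside the subunits. Of 15 tested genes of glutamate, GABA and glycine transport and synthesis, 13 were higher and 2 lower in diabetic pools, with a median of 0.10, and 0 passed (adjusted p = 0.999, limma). Over all genes 51.9% were higher. Without diabetic replicate 2 the count was 9 higher and 6 lower, with a median of 0.01. The GABA transporter gene Slc6a13, below the filter, had the largest difference of the list and the opposite sign, at 7.78, 9.37 and 8.65 in the diabetic pools and at 9.35 and 10.33 in the controls (-1.24, SE 0.51). Slc32a1, the vesicular transporter of GABA and glycine, was at 12.87, 13.52 and 13.04 in the diabetic pools and at 12.77 and 12.96 in the controls (0.28, SE 0.18). Gad2, a GABA-synthesizing enzyme, was at 12.36, 12.29 and 12.03 against 12.03 and 12.05 (0.18, SE 0.12). Diabetic replicate 2 was high for Slc32a1, and diabetic replicate 3 lay with the controls for Gad2.

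Of 28 tested auxiliary and scaffold genes, 16 were higher and 12 lower with a median of 0.03, and 2 (Dlg4 and Neto1) had an unadjusted limma p under 0.05, where 3.39% of all genes did. Dlg4 encodes PSD-95, the scaffold of NMDA receptors and their partners. It was at 12.89, 12.74 and 12.94 in the diabetic pools and at 13.12 and 13.18 in the controls, lower in 3 of 3 diabetic pools (-0.30, SE 0.10, adjusted p = 0.999). With single arrays left out it lay between -0.34 and -0.24, but its unadjusted limma p was no longer under 0.05 without control replicate 2, without both muscle-rich arrays, with each array centred on its median or with the mean over probe sets. Neto1, an auxiliary subunit of kainate receptors, was at 11.42, 11.30 and 11.43 in the diabetic pools and at 11.14 and 10.93 in the controls, higher in 3 of 3 (0.34, SE 0.13, adjusted p = 0.999). Without control replicate 2 it was 0.24, and without both muscle-rich arrays 0.22, and in both fits its unadjusted p was over 0.05, as it was with the mean over probe sets, with a replicate block and without diabetic replicate 1 or 3. Of 7 further subunit genes measured, only Grik1 was tested, at -0.14 (SE 0.21), and Gabra6 was dim, at 8.61, 7.96 and 8.26 against 7.21 and 7.84. Glra4 was dim too, at 7.43, 8.32 and 7.38 against 7.34 and 7.43.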

How the data were processed

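Total retinal RNA of 5 pools was measured on Affymetrix mouse arrays. The authors deposited linear signal intensities, 1 per probe set, whose mean without the lowest and highest 2% was 2500.0 in every array. How signals were summarized and corrected for background is not given in the sources used here. Probe sets with 1 gene symbol (34945 of 45101) were named from the platform annotation and updated by Entrez ID. All values are log2(signal + 120.6), the 20th percentile of all signals being added, so differences of dim genes are understated. The probe set of highest mean stood for its gene. The upper 60% of 18193 genes were tested in limma 3.58.1 (R 4.3.3, lmFit and eBayes with a trend, 3 residual degrees of freedom). The step was run on simulated data whose changes were larger than any member difference here, so it cannot show whether differences of that size would be found. Members below the filter have values from the fit without a filter. Probe sets were also fitted singly. The pseudocounts 1 and 690.0, other normalizations, filters, variance models, a replicate block and arrays left out were tried. The number of arrays limits the precision. Members, lists and tests were chosen with earlier results of these data known. Every member was named, with values in all arrays for the brightest of each class, for those whose groups or probe sets stood apart, and for others chosen after their values were seen. Of each further list the 2 genes of smallest p were named, untested ones included, and beside them Gad2 and Grik1, the next or only tested ones. Plots used matplotlib 3.10.9.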

Additional observations from a re-analysis of the deposited data

Results flagged for a closer look

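Among control probe sets outside the gene comparison, the 18S ribosomal RNA signals and the beta-actin ratio stood above both control arrays in diabetic replicate 2, the array that was highest in 15 of 29 tested subunits. Its beta-actin 3' to 5' ratio was 4.32, against 2.52 and 2.71 in the controls. The 3' probe set of 18S ribosomal RNA gave a signal of 11743.8 there, against 2939.6 and 2992.5 in control replicates 1 and 2, the 5' probe set 11258.9 against 1930.8 and 1668.0, and the one between them 7086.7 against 1801.0 and 1948.9. Their part in the subunit values was not tested.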

How the results depend on the processing

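No member passed an adjusted p of 0.05 under any alternative run. As no member was called in the reported fit, none could lose or reverse a call. Genes called across the genome numbered 0 in the reported fit and between 0 and 1 with single arrays left out, 2 with a replicate block and 2 without both muscle-rich arrays. Tested members at an unadjusted limma p under 0.05 numbered 0 in the reported fit, where 3.39% of all genes were under it. They also numbered 0 with any single diabetic array left out, where 3.46% to 5.51% of all genes were. There was 1 without a filter on dim genes (Grik4), where 3.82% of all genes were under it. With a replicate block there was 1 tested member (Glrb), where 3.54% of all genes were, and dim members such as Grin2c are not in that count. Fits that leave 1 control array are given here by size only. Glrb differed by 0.51 without control replicate 2, by 0.02 without control replicate 1 and by 0.54 without both muscle-rich arrays. The deviations of same-numbered arrays from their group means correlated at 0.13 for number 1 and -0.14 for number 2. With 2 controls, the deviations of one mirror those of the other, so these values cannot decide whether the numbers pair the pools. The numbers were not taken as pairs, and in the block diabetic replicate 3, with no control of its number, adds nothing. With the mean over probe sets, the class medians were -0.10 for AMPA, 0.06 for metabotropic glutamate and -0.10 for glycine receptors, against -0.03, -0.17 and 0.09 as reported. The metabotropic median was 0.07 over the upper 40% of genes, where fewer genes were tested, and -0.03 without both muscle-rich arrays, where the delta receptor value was 0.19. With single arrays left out, the class medians ran from -0.09 to 0.04 for AMPA receptors, and 13 of 29 tested members kept the sign of their difference. The cause of these shifts was not tested. Signals near the background limit what can be said of the 7 dim members.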
